A study of Mus musculus with 48 samples.

Results

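White adipose tissue (WAT) of old mice switched late in life from full feeding to dietary restriction was compared with WAT of mice of the same age that had been fully fed throughout. The comparison holds 8 of the 48 libraries of the study: 5 of the switched group, called ALDR, and 3 of the fully fed group, called AL. Libraries were chosen by their sample labels alone. All mice were female C3B6F1 hybrids and are labelled 26 months old, although the protocol in the labels gives 27 months as the age at death. ALDR mice ate freely until 24 months and then received 60% of the food eaten by AL mice, reached in steps of 10% a week. The comparison addresses whether fat that has been fully fed for most of life still responds to restriction begun in old age. For reference, values are also given for 3 libraries of mice restricted from 12 weeks of age (DR), 5 of mice returned from restriction to full feeding at 24 months (DRAL), and 3 AL and 3 ALDR libraries of mice killed at 5 months. Tissue was taken within 3 hours of, and before, the daily meal of restricted mice, so every value is from 1 window of the day. The protocol names epididymal fat although the mice were female, so the depot is uncertain. The labels do not tie replicate numbers to cages or batches. The p-values for WAT rest on a spread between libraries of a group that was estimated over all 22 WAT libraries, not the 8 alone.

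White fat stores energy as triglyceride in adipocytes, which make fatty acids from glucose, take them up from circulating lipoproteins, and release them again by lipolysis when food is scarce. The tissue around the adipocytes holds progenitor cells and fibroblasts that lay down collagen, blood vessels, and macrophages whose number rises in obesity. Adipocytes also carry a circadian clock, in which the activators ARNTL (BMAL1) and CLOCK or NPAS2 drive the Per and Cry repressors and the Nr1d and Ror receptors, and feeding time is a strong signal to this clock in peripheral tissues.

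Expression differed in 690 of the 15828 genes tested, or 4.36%, at an adjusted p under 0.05 in edgeR's quasi-likelihood test with Benjamini-Hochberg (BH) adjustment. Of these, 421 genes (2.66%) rose and 269 (1.7%) fell in ALDR. Changes were mostly small: the median absolute log2 fold change of the called genes was 0.69, and 173 of them reached 1, with 95 higher and 78 lower. In 608 of the 690 genes no ALDR library overlapped with an AL library, against 2070 of all 15828 genes (13.1%; 7.31% with ALDR higher and 5.77% with ALDR lower). Among the gene lists examined, the matrix list held 15 called genes, mostly lower, the clock list 12, mostly higher, and the list of triglyceride synthesis and fatty acid uptake 7, all higher. Expression is given below as CPM, a gene's read count relative to the library total, with totals scaled by TMM factors. CPM is not scaled by gene length, so levels are compared between libraries and not between genes.

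The number of called genes depended on which libraries were used. It was 191, 339 and 252 without AL replicate 1, 2 or 3, and 414, 333 and 374 without ALDR replicate 1, 2 or 5. Without ALDR replicate 4 it rose to 1159. That library lay nearest the AL mean among the 5 ALDR libraries in 376 of the 690 called genes (54.5%), while each other ALDR library did so in 44 to 123. Some libraries also carried transcripts of neighbouring tissues. Summed CPM of 15 skeletal muscle markers was 1250 in AL replicate 1, 4463 in ALDR replicate 2 and 1516 in ALDR replicate 5, and 43.9 to 93.1 in the other 5 libraries. Summed CPM of 14 liver markers was 2638 in AL replicate 3 and 3648 in ALDR replicate 2, and 219 to 990 elsewhere. Their albumin transcript Alb was at 1460 CPM in AL replicate 3 and 2116 CPM in ALDR replicate 2, against 16.5 to 95.8 CPM in the other 6. Leaving out the 3 libraries with muscle transcripts left 16 called genes, 7 higher and 9 lower, from 2 AL and 3 ALDR libraries. Leaving out the 2 libraries with liver transcripts left 97 genes. A fit of the 2 groups alone called 177. No muscle marker passed the test, with high muscle sums in libraries of both groups. With muscle and liver marker levels as covariates 703 genes were called, among them 615 of the 690. Of the 14 liver markers only Cyp2e1 passed the test, higher in ALDR, and of the fits without 1 library it did so only without ALDR replicate 4.

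The tissue label was checked against adipocyte markers, of which 3 of 15 rose (Pck1, Cfd and Cidec) and none fell, against 2.66% and 1.7% of all genes. The 3 calls were 0 without AL replicate 1, 1 without AL replicate 3, and 0 without the libraries with muscle transcripts or those with liver transcripts. Adipoq, which encodes the adipocyte hormone adiponectin, was at 2334, 2654 and 2837 CPM in AL and at 2702, 3038, 3094, 3516 and 3439 CPM in ALDR. Ucp1, the uncoupling protein that defines brown adipocytes, was between 0 and 7.63 CPM in the 8 libraries. Summed CPM of 15 adipocyte markers was 22271 to 24289 in AL and 29598 to 38324 in ALDR, with no overlap. DRAL, at 27718 to 31764 CPM, also lay above AL and overlapped ALDR. The 5 of these markers on none of the gene lists below summed to 6516 to 8459 CPM in AL and 8578 to 12595 CPM in ALDR. Summed CPM of 23 macrophage markers was 3972 to 6788 in AL and 2675 to 4138 in ALDR. In DRAL it was 2311 to 5201. The 16 markers of adipocyte progenitors and fibroblasts summed to 5651 to 6923 CPM in AL and 3154 to 4434 CPM in ALDR, without overlap. That separation rests on 4 genes also on the matrix list (Col1a1, Col3a1, Dcn and Lum): the other 12 markers summed to 956 to 1032 CPM in AL and 756 to 1036 CPM in ALDR, which overlap. In bulk tissue, fewer cells of a type and less RNA per cell cannot be told apart, and the part of these shifts in the results below was not tested. The plot of marker sums shows the 8 libraries one by one.

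**Figure D1:**
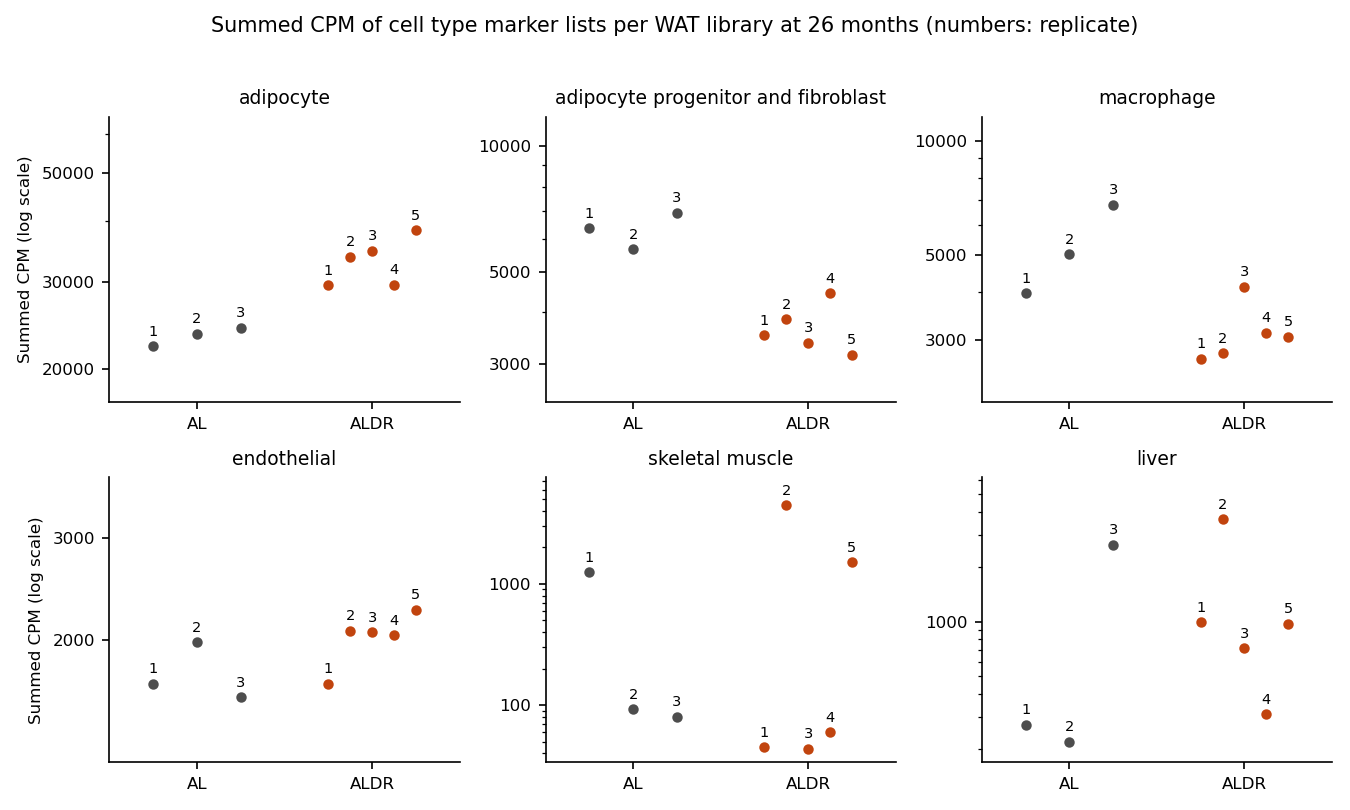
Summed CPM (vertical axis, log scale) of 6 marker lists in the 3 AL and 5 ALDR libraries at 26 months, with 1 point per library and its replicate number above it. Adipocyte sums are higher in every ALDR library than in every AL library, fibroblast sums are lower but overlap once the 4 matrix genes are left out (956 to 1032 CPM in AL and 756 to 1036 CPM in ALDR), and muscle and liver sums are high in single libraries of both groups.

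Of 23 clock genes tested, 9 rose and 3 fell, against 2.66% and 1.7% of all genes. Their median log2 fold change was 0.31, against 0.01 over all genes tested. The activators Arntl and Npas2 were low in ALDR, while the repressors Per2 and Per3, the receptors Nr1d2 and Rora, and the D-box activators Dbp, Tef and Hlf were high. Both the Per genes and the D-box activators are targets of the ARNTL complex. The list does not speak for all of the clock: Clock, Cry1, Cry2, Per1 and Nr1d1 did not pass the test.

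The promoter sequences of 4 of the called clock genes are shown because they hold the short motifs through which clock proteins act on each other's genes. The windows run from 250 bases before to 50 bases after a transcription start, were taken from RefSeq on GRCm38.p6, and are written 5′ to 3′ on the gene's strand with the motif in capitals. The motifs searched on both strands were the E-box CACGTG, bound by the ARNTL complex, the D-box TTATGTAA or TTACGTAA, bound by DBP, TEF, HLF and NFIL3, and the core TAGGTCA of the ROR element, bound by ROR and NR1D receptors. No 2 matches shown overlap.
Arntl, second of its listed starts (chr7:113207261-113207560, plus strand), ROR element core: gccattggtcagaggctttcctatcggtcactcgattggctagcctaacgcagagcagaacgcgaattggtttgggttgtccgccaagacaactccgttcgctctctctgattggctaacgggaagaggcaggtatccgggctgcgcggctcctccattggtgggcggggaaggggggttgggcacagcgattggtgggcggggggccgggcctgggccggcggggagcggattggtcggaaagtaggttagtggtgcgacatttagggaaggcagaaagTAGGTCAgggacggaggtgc
Nfil3 (chr13:52980990-52981289, minus strand), ROR element core on the opposite strand: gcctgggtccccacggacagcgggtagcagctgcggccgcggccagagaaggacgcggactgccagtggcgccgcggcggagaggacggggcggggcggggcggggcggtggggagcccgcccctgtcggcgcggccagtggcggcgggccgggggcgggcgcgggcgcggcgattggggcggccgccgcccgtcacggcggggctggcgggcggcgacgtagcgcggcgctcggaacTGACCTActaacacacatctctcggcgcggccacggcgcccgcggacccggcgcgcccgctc
Tef, the first of its listed starts (chr15:81802423-81802722, plus strand), E-box: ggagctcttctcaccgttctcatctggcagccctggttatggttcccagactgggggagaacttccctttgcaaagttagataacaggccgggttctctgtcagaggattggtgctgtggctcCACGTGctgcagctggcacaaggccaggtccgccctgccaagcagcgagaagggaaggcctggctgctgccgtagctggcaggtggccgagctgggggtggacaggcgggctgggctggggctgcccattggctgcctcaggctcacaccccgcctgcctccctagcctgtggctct
Per3 (chr4:151044616-151044915, minus strand), D-box, 2 matches: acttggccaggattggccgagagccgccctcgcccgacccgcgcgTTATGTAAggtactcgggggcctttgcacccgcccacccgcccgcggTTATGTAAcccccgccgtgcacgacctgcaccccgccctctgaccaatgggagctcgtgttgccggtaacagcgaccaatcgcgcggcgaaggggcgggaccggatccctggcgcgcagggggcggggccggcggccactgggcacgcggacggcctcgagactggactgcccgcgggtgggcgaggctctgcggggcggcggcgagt

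The ROR element core lay 31 bases past the second listed start of Arntl, and the window of its first listed start held none of the motifs. In Nfil3 the core began 12 bases before the start. The E-box of Tef began 127 bases before its start, and its other listed start has an E-box as well. In Per3 the D-box matches began 205 and 158 bases before the start. Of the 12 called clock genes, 9 had a promoter in the table: 2 held the ROR element core, 1 an E-box and 1 a D-box. A gene was counted when any of its listed starts held the motif. Over all 32841 promoters of the same length, with each start counted singly, 2.61% held the ROR element core, 7.15% the E-box and 1.06% the D-box. Both genes with the ROR element core in this window, Arntl and Nfil3, fell, and Tef and Per3 rose. A match of letters is a description of the window only.

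Arntl (ENSMUSG00000055116, chr7:113207465-113314126), the activator that all E-box transcription of the clock depends on, was at 27.7, 33.6 and 28.2 CPM in AL. In ALDR it was at 7.79, 7.68, 8.38, 9.13 and 13.9 CPM. Every ALDR library was below every AL library, with replicate 5 the highest of its group. The log2 fold change was -1.67 ± 0.16 (SE; edgeR adjusted p = 3.5e-05). Npas2 (chr1:39193731-39363236), a partner of ARNTL that can stand in for CLOCK, was at 5.80, 11.0 and 8.52 CPM in AL and at 1.21, 2.36, 1.47, 0.985 and 2.27 CPM in ALDR. It fell by 2.34 ± 0.28 on the log2 scale (SE; edgeR adjusted p = 0.000126), also without overlap. Nfil3, the repressor that competes with the D-box activators, was at 13.9 to 15.4 CPM in AL and at 7.02 to 11.4 CPM in ALDR. Its log2 fold change was -0.80 ± 0.20 (SE; edgeR adjusted p = 0.0294).

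Per3 (chr4:151003652-151044665), a repressor arm gene, was at 29.5, 36.6 and 26.3 CPM in AL and at 121.8, 119.4, 95.3, 99.0 and 85.6 CPM in ALDR. All ALDR libraries were well above the AL range, and the log2 fold change was 1.76 ± 0.20 (SE; edgeR adjusted p = 9.93e-05). Per2 (chr1:91415982-91459324) was at 12.2, 12.7 and 6.49 CPM in AL and at 47.0, 57.2, 63.1, 25.5 and 33.3 CPM in ALDR. Per2 rose by 2.12 ± 0.37 (SE; edgeR adjusted p = 0.00426), the largest rise of the list. Per1 was higher by 0.77 ± 0.38 on the log2 scale without passing the test (edgeR adjusted p = 0.276).

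Tef (chr15:81802421-81826863), a D-box activator, was at 84.1, 89.7 and 73.6 CPM in AL and at 231.6, 226.0, 185.5, 204.7 and 176.6 CPM in ALDR. Its rise of 1.31 ± 0.14 on the log2 scale had the smallest adjusted p of the genes that rose among those named by rank (SE; edgeR adjusted p = 8.72e-05). Dbp (chr7:45705088-45710203), the best known of the D-box activators, was at 9.93, 9.83 and 9.45 CPM in AL and at 39.1, 39.5, 23.7, 53.9 and 18.8 CPM in ALDR. The AL libraries lay close together, the ALDR libraries were spread widely, and the groups did not overlap. Dbp rose by 1.84 ± 0.33 on the log2 scale (SE; edgeR adjusted p = 0.0046). Hlf rose from 4.84 to 6.76 CPM in AL to 8.79 to 13.9 CPM in ALDR, a log2 fold change of 1.00 ± 0.27 (SE; edgeR adjusted p = 0.0393).

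Nr1d2 (chr14:18204054-18239127), which encodes the receptor REV-ERB beta that represses Arntl, was at 55.3, 51.4 and 55.1 CPM in AL and at 131.2, 127.0, 105.1, 117.2 and 91.2 CPM in ALDR. It rose by 1.08 ± 0.16 on the log2 scale (SE; edgeR adjusted p = 0.00133). Its paralog Nr1d1 (REV-ERB alpha) was at 23.4 to 37.1 CPM in AL and at 14.9 to 45.1 CPM in ALDR, with a log2 fold change of -0.01 ± 0.33. Rora, which acts through the same element, rose from 69.0 to 78.7 CPM in AL to 91.3 to 139.3 CPM in ALDR, by 0.69 ± 0.13 on the log2 scale (SE; edgeR adjusted p = 0.00531).

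In the fits without 1 library, between 6 and 9 clock genes were called higher and 2 or 3 lower. Arntl, Npas2, Per2, Per3, Tef, Nr1d2 and Dbp passed the test in each of these 8 fits. Without the 3 libraries with muscle transcripts, and likewise without the 2 with liver transcripts, 3 clock genes were called higher and 2 lower. The reference groups were set beside ALDR for the same genes. Over all genes, 26.0% differed between DR and AL (13.5% higher and 12.5% lower in DR), 2.17% between DRAL and AL (0.891% and 1.28%), 12.8% between ALDR and DR (5.81% higher and 6.96% lower in ALDR) and 12.3% between ALDR and DRAL (6.37% and 5.96%). The comparisons with AL share the AL libraries. The DR libraries also carried muscle transcripts, with summed muscle markers of 511, 7173 and 19458 CPM, the last 2 above every AL and ALDR library, against 59.2 to 92.1 CPM in DRAL. Their liver marker sums were 2019 to 2961 CPM, against 427 to 806 CPM in DRAL. The liver list's median log2 fold change for DR against AL was -3.91, so these sums do not speak for the list as a whole. The part of muscle and liver transcripts in the comparisons with DR was not tested. In DR, Arntl was at 9.21 ± 0.62 CPM, Per3 at 127.6 ± 35.3 CPM and Tef at 242.7 ± 46.7 CPM (SD, n = 3), beside ALDR means of 9.38 ± 2.61, 104.2 ± 15.7 and 204.9 ± 24.1 CPM (SD, n = 5). The direct log2 differences of ALDR from DR were 0.02 ± 0.17, -0.29 ± 0.18 and -0.24 ± 0.13 (SE). In DRAL the same genes were at 25.7 ± 2.86, 33.0 ± 6.98 and 99.8 ± 16.4 CPM (SD, n = 5). ALDR differed from DRAL in all 3, with log2 differences of -1.46 ± 0.15 for Arntl, 1.66 ± 0.16 for Per3 and 1.04 ± 0.12 for Tef (SE; edgeR adjusted p = 1.84e-05, 1.61e-05 and 8.71e-05). Nfil3 was at 14.1 to 15.9 CPM in DR, above every ALDR library, with a log2 difference of ALDR from DR of -0.83 ± 0.20 (SE; edgeR adjusted p = 0.0114).

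**Figure D2:**
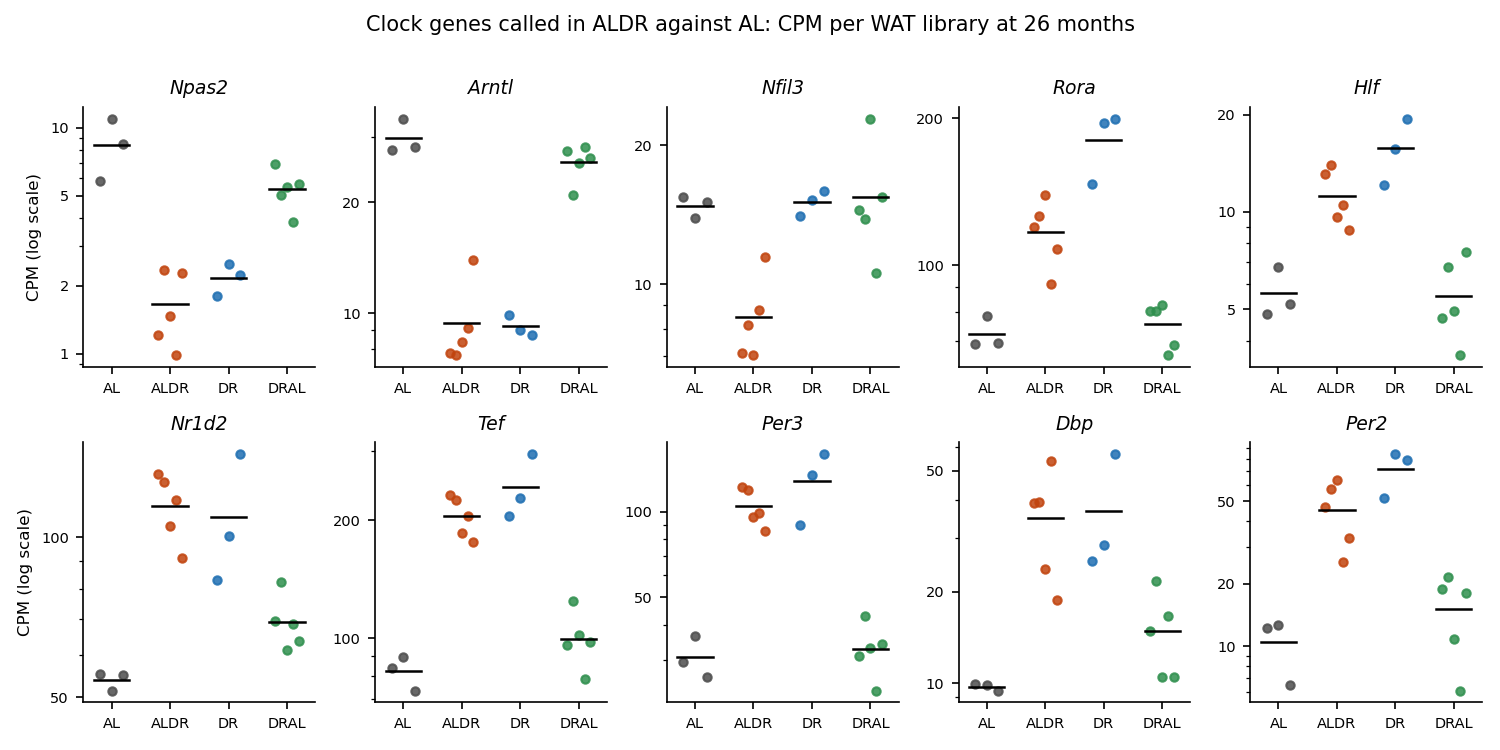
CPM (vertical axis, log scale) of 10 of the 12 called clock genes in each WAT library of 26-month-old mice, with 3 AL, 5 ALDR, 3 DR and 5 DRAL libraries as points and group means as lines. Arntl, Npas2 and Nfil3 are lower and the other 7 genes higher in every ALDR library than in every AL library.

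Of 20 fatty acid synthesis genes tested, 4 rose and none fell, against 2.66% and 1.7% of all genes, and the list's median log2 fold change was 0.73, against 0.01 over all genes. Summed CPM of the list was 13835 to 24716 in AL, 35760 to 53324 in ALDR and 122555 to 134290 in DR, so ALDR lay between both without overlap. In DRAL it was 15780 to 35543, which overlapped AL and came close to the lowest ALDR library. The list's median log2 fold change for DRAL against AL was 0.51. The genes called in ALDR were Acaca, Tkt, Elovl6 and Me1. At an unadjusted p under 0.05, 11 of the 20 genes were higher and none lower, against 10.8% and 8.85% of all genes.

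Acaca (chr11:84129672-84401651), acetyl-CoA carboxylase, which commits carbon to fatty acids, was at 536.8, 502.2 and 710.1 CPM in AL and at 3395, 2315, 1953, 1149 and 1683 CPM in ALDR. Every ALDR library was above every AL library, with a log2 fold change of 1.85 ± 0.38 (SE; edgeR adjusted p = 0.0111). DR libraries averaged 9475 ± 780 CPM (SD, n = 3), and ALDR was below DR by a log2 difference of -2.17 ± 0.34 (SE; edgeR adjusted p = 0.000651). Elovl6 (chr3:129532355-129638495), the elongase that turns palmitate into stearate, was at 65.4, 31.4 and 85.8 CPM in AL and at 552.9, 194.4, 217.9, 177.5 and 147.9 CPM in ALDR. ALDR replicate 1 was far above the rest of its group. Elovl6 rose by 2.08 ± 0.54 on the log2 scale (SE; edgeR adjusted p = 0.0343), and the difference from DR, at 2489 ± 527 CPM (SD, n = 3), was -3.27 ± 0.49 (SE; edgeR adjusted p = 0.000467). Tkt (chr14:30548359-30574720), transketolase of the pentose phosphate pathway, rose from 346.8 to 590.2 CPM in AL to 830.9 to 2112 CPM in ALDR, by 1.58 ± 0.33 (SE; edgeR adjusted p = 0.0117). Me1 (chr9:86581371-86695953), the malic enzyme that supplies NADPH, rose from 130.7 to 223.7 CPM to 236.7 to 566.2 CPM, by 1.17 ± 0.32 (SE; edgeR adjusted p = 0.0451).

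Fasn and Scd1 lay just outside the threshold, and their calls varied with the method. Fasn (chr11:120805846-120824547), fatty acid synthase, was at 2137, 1789 and 3461 CPM in AL and at 10150, 6256, 6688, 4184 and 5410 CPM in ALDR. The groups did not overlap, and the log2 fold change was 1.41 ± 0.40 (SE; edgeR adjusted p = 0.0547). Scd1, the desaturase that makes oleate, was 1.18 ± 0.34 higher on the log2 scale, again without overlap (SE; edgeR adjusted p = 0.0558). Over the 19 alternatives Fasn was called in 5, with DESeq2, limma-voom, upper-quartile factors, the replicate block and without ALDR replicate 4, and its adjusted p ranged from 0.00507 to 0.319. Scd1 was called in 3, with DESeq2, limma-voom and upper-quartile factors, and its adjusted p ranged from 0.00615 to 0.329. Acly, ATP citrate lyase, overlapped between the groups, with a log2 fold change of 0.75 ± 0.43 (SE; edgeR adjusted p = 0.363). Srebf1, which encodes the transcription factor that drives these genes in response to insulin, was at 173.7, 175.4 and 223.0 CPM in AL and at 223.3, 164.1, 151.4, 200.9 and 163.7 CPM in ALDR, with a log2 fold change of -0.08 ± 0.19 (SE; edgeR adjusted p = 0.874). Its level in DR, 484.0 ± 66.4 CPM (SD, n = 3), was above every AL and ALDR library, and ALDR differed from DR by -1.42 ± 0.19 (SE; edgeR adjusted p = 0.000166). None of the 4 called genes of the list held an E-box, D-box, ROR element core or sterol regulatory element (TCACNCCAC) in its promoter window. The count of 4 called genes was 0 without AL replicate 1 or 2, and 2 without AL replicate 3, ALDR replicate 1 or ALDR replicate 2. It was 7 with DESeq2. It was 0 without the 3 libraries with muscle transcripts, with a median of 0.84 for the list, and 1 without the 2 with liver transcripts, with a median of 1.025.

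Of 18 genes that assemble triglyceride or bring fatty acids into the cell, 7 rose and none fell, against 2.66% and 1.7% of all genes (median log2 fold change 0.33). Pck1 (chr2:173153048-173159273), the enzyme of glyceroneogenesis in fat, was at 1009, 1272 and 1371 CPM in AL and at 3654, 4131, 3845, 1646 and 3975 CPM in ALDR. ALDR replicate 4 was closer to the AL libraries than to the other 4, and the log2 fold change was 1.503 ± 0.298 (SE; edgeR adjusted p = 0.00922). Slc27a1, a fatty acid transporter, was at 318.4, 359.3 and 352.0 CPM in AL and at 792.1, 742.6, 716.4, 310.2 and 938.1 CPM in ALDR. Replicate 4 was below all AL libraries, and the log2 fold change was 1.03 ± 0.25 (SE; edgeR adjusted p = 0.0269). Dgat1, which adds the last acyl chain, rose from 140.4 to 174.1 CPM to 198.3 to 295.2 CPM, by 0.77 ± 0.15 (SE; edgeR adjusted p = 0.00862). The other risers were Acsl1 (log2 fold change 1.03), which activates fatty acids, Gpat3 (0.65) and Lpin1 (0.93), which act earlier in glycerolipid synthesis, and Gpihbp1 (0.90), which carries lipoprotein lipase to the capillary wall. Lpl itself changed by 0.18 ± 0.20 and Dgat2 by -0.17 ± 0.29, with overlapping libraries. The count of 7 was 0 without AL replicate 1 or without the 3 libraries with muscle transcripts, 2 without AL replicate 2, and 4 without the 2 libraries with liver transcripts.

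**Figure D3:**
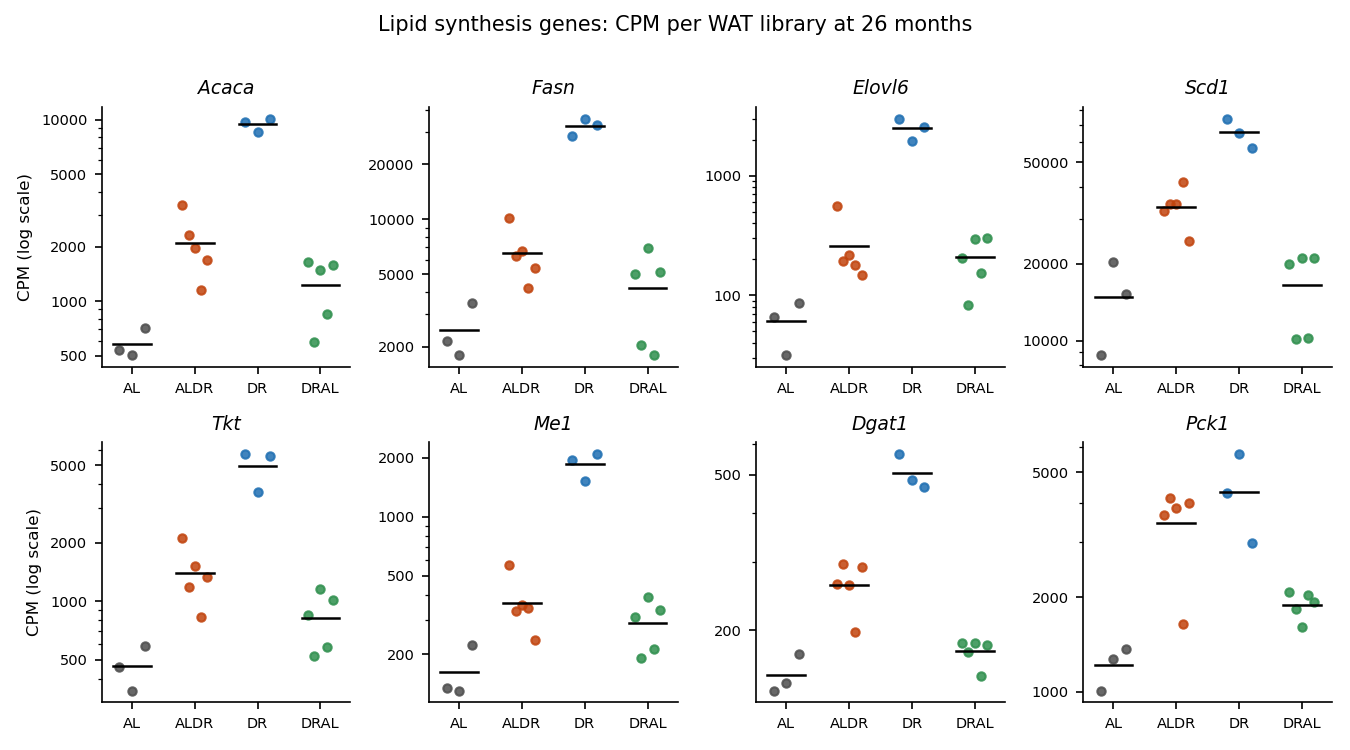
CPM (vertical axis, log scale) of 8 lipid synthesis genes in each WAT library at 26 months, with points for the 3 AL, 5 ALDR, 3 DR and 5 DRAL libraries and lines for group means. For Acaca, all ALDR points lie above the AL points and below the DR points, as they do for Fasn, Elovl6, Tkt, Me1 and Dgat1.

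Of 21 genes of lipolysis and the lipid droplet, 5 rose and none fell, against 2.66% and 1.7% of all genes (median 0.28). Pde3b, the phosphodiesterase through which insulin restrains lipolysis, was at 365.4, 383.1 and 411.3 CPM in AL and at 758.0, 907.1, 862.0, 439.7 and 867.5 CPM in ALDR. Pde3b rose by 0.99 ± 0.19 (SE; edgeR adjusted p = 0.00862), with replicate 4 again the lowest ALDR library. Adrb3, the beta-adrenergic receptor that starts lipolysis, rose by 1.01 ± 0.23 (SE; edgeR adjusted p = 0.0212), although its lowest ALDR library, at 123.4 CPM, lay below the highest AL library, at 137.8 CPM. Prkar2b (0.66), a regulatory subunit of protein kinase A, Fitm2 (0.56), which acts in droplet formation, and Cidec (0.53), which enlarges droplets, were the other risers on the log2 scale. The lipases Pnpla2 and Lipe were higher by 0.39 and 0.40 without passing the test. The 5 calls became 0 without AL replicate 1, 1 without AL replicate 2 or ALDR replicate 2, and 3 without AL replicate 3. They were 0 without the libraries with muscle transcripts and 0 without those with liver transcripts.

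Of 22 genes of glucose uptake and insulin signalling, 4 rose and none fell, beside 2.66% and 1.7% of all genes (median 0.27). These were Insr, the insulin receptor, by 0.76 ± 0.18 (SE; edgeR adjusted p = 0.0234), Pik3ca by 0.27, Akt2 by 0.42 and Pfkfb1, which controls glycolysis, by 0.44 on the log2 scale. Insr was at 133.3, 172.2 and 134.4 CPM in AL and at 233.8, 279.8, 265.6, 178.7 and 285.0 CPM in ALDR, so that replicate 4 was just above the AL range. Slc2a4, the insulin-responsive glucose transporter, was 0.41 ± 0.16 higher and did not pass the test (edgeR adjusted p = 0.153). The 4 calls were 0 without AL replicate 1 or ALDR replicate 2, 1 without AL replicate 3 or ALDR replicate 5, and 2 without AL replicate 2 or ALDR replicate 1. Without the libraries with muscle transcripts they were 0 (list median 0.097), and without those with liver transcripts 0 (0.197).

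Of the adipokines, which are hormones secreted by fat, 4 of 16 tested rose and none fell, where 2.66% of all genes rose and 1.7% fell (median 0.26). Nrg4 (chr9:55220222-55326844), a secreted neuregulin, was at 29.0, 27.9 and 34.5 CPM in AL and at 96.05, 93.5, 66.9, 70.2 and 90.9 CPM in ALDR. Every ALDR library was above the AL range, and the log2 fold change was 1.45 ± 0.24 (SE; edgeR adjusted p = 0.00304). Cfd (adipsin) rose by 0.99 ± 0.24, Retn (resistin) by 0.84 ± 0.21 and Vegfa, a vascular growth factor, by 0.49 ± 0.13 (SE; edgeR adjusted p = 0.0237, 0.0322 and 0.0437). Lep, the satiety hormone leptin, was at 2700, 1978 and 2290 CPM in AL and at 789.8, 1075, 1273, 2578 and 494.2 CPM in ALDR. In 4 ALDR libraries Lep was below all AL libraries, while replicate 4 lay within the AL range. Its log2 fold change of -0.90 ± 0.41 did not pass the test (SE; edgeR adjusted p = 0.223) and was -1.36 without replicate 4, where the gene was called. Lep averaged 284.4 ± 17.1 CPM in DR (SD, n = 3), and ALDR was higher than DR by 2.13 ± 0.46 (SE; edgeR adjusted p = 0.00551). The 4 adipokine calls were 1 without AL replicate 1 or 3, 2 without ALDR replicate 2 or 3, 0 without the libraries with muscle transcripts and 1 without those with liver transcripts.

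Glucocorticoid and fasting response genes included 4 risers among 22 tested and none that fell, beside 2.66% and 1.7% of all genes (median 0.40). Hsd11b1 (chr1:193221634-193264075), which regenerates active glucocorticoid inside the cell, was at 62.1, 93.1 and 66.6 CPM in AL and at 252.8, 263.3, 277.3, 120.6 and 242.7 CPM in ALDR. Its log2 fold change was 1.65 ± 0.27 (SE; edgeR adjusted p = 0.00302), and replicate 4 was again the lowest ALDR library but above the AL range. Hsd11b1 overlaps Lamb3 on the opposite strand. Fkbp5, a chaperone of the glucocorticoid receptor and its target, was at 22.8, 16.1 and 19.2 CPM in AL and at 57.8, 59.7, 107.1, 24.6 and 59.5 CPM in ALDR. Fkbp5 rose by 1.67 ± 0.32 (SE; edgeR adjusted p = 0.00743), with replicate 4 just above the AL range and replicate 3 the highest. Zbtb16, a further receptor target, rose by 1.17 ± 0.32 and Txnip, which limits glucose uptake, by 0.70 ± 0.19 (SE; edgeR adjusted p = 0.0428 and 0.0441); in Zbtb16 replicate 4, at 70.3 CPM, was inside the AL range. The receptor gene Nr3c1 changed by 0.11 ± 0.09 and did not pass the test. The 4 calls were 2 without any 1 of the AL replicates or ALDR replicates 1 to 3, and 7 without ALDR replicate 4, where the list's median was 0.11. Leaving out the libraries with muscle transcripts gave 0 calls, and leaving out those with liver transcripts gave 1.

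Of 23 sterol synthesis and uptake genes 1 rose and 2 fell, where 2.66% of all genes rose and 1.7% fell (median -0.23). The median was 0.068 without AL replicate 3 and 0.027 without the libraries with liver transcripts, and none of the 3 calls was made without the libraries with muscle transcripts or those with liver transcripts. Fdft1, squalene synthase, rose from 39.5 to 44.1 CPM in AL to 53.7 to 83.3 CPM in ALDR, by 0.68 ± 0.13 (SE; edgeR adjusted p = 0.00857). Srebf2, which encodes the factor that drives sterol genes, fell by 0.56 ± 0.14 on the log2 scale (SE; edgeR adjusted p = 0.0327). The Srebf2 call was lost without any AL replicate and without ALDR replicate 2, 3 or 5, and Fdft1 without AL replicate 1.

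Few genes of fatty acid oxidation and thermogenesis passed the test. Of 22 oxidation genes 2 rose and none fell, where 2.66% and 1.7% of all genes did: Acot2, a mitochondrial acyl-CoA thioesterase, by 1.05 ± 0.18 (SE; edgeR adjusted p = 0.00407), and Echs1, enoyl-CoA hydratase, by 0.54 ± 0.13 (SE; edgeR adjusted p = 0.0215). Acot2 was at 21.1, 25.3 and 20.4 CPM in AL and at 51.1, 54.7, 46.9, 28.0 and 50.5 CPM in ALDR, without overlap. Cpt1a and Cpt1b, which admit fatty acids to mitochondria, changed by -0.20 ± 0.15 and 0.51 ± 0.46. The 2 oxidation calls were 1 without AL replicate 1, AL replicate 2 or ALDR replicate 5, 1 without the libraries with liver transcripts and 0 without those with muscle transcripts. Of 15 thermogenic genes tested only Adrb3 was called, and Ucp1 was not (log2 fold change -1.504 ± 1.86). The Adrb3 call was lost without AL replicate 1 or 2 and without ALDR replicate 2 or 5. It was also lost without the libraries with muscle transcripts and without those with liver transcripts. Of 22 genes of branched-chain and serine amino acid metabolism, 3 rose, beside 2.66% of all genes: Dbt by 0.38, Hibch by 0.67 and Asns by 0.61 on the log2 scale. The first of these encodes a subunit of the branched-chain keto acid dehydrogenase. None of these 3 was called without AL replicate 1, the libraries with muscle transcripts or those with liver transcripts, and 1 was called without AL replicate 2.

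Of 34 extracellular matrix genes tested, 14 fell and 1 rose, against 1.7% and 2.66% of all genes, and the list's median log2 fold change was -0.72. Summed CPM of the list was 21405, 18804 and 23109 in AL and 9774, 11873, 12376, 16760 and 11112 in ALDR. ALDR replicate 4 was the nearest to AL, and the groups did not overlap. The genes that fell encode fibrillar collagens (Col1a1, Col1a2, Col3a1, Col5a1, Col5a2), the microfibrillar collagen VI (Col6a1, Col6a2, Col6a3), collagens of the basement membrane zone (Col15a1, Col18a1), fibronectin (Fn1), fibrillin (Fbn1), the crosslinking enzyme Loxl1 and the collagenase Mmp14. Timp3, an inhibitor of such proteases, rose by 0.67 ± 0.16 (SE; edgeR adjusted p = 0.0265). Among the fits without 1 library that call was kept only without ALDR replicate 1 or 4, and it was lost without the libraries with muscle transcripts and without those with liver transcripts. The basement membrane collagens Col4a1 and Col4a2 were lower by 0.55 ± 0.23 and 0.76 ± 0.28 on the log2 scale and did not pass the test (edgeR adjusted p = 0.192 and 0.136).

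Fbn1 (chr2:125300594-125507993), which forms elastic microfibrils, was at 605.2, 847.7 and 796.2 CPM in AL and at 231.0, 351.7, 362.5, 290.9 and 200.6 CPM in ALDR. Its log2 fold change was -1.38 ± 0.23 (SE; edgeR adjusted p = 0.00352). Col1a2 (chr6:4504814-4541544), a chain of type I collagen, was at 1004, 802.9 and 910.5 CPM in AL and at 350.8, 426.9, 368.7, 436.5 and 407.5 CPM in ALDR. The ALDR libraries were close together and all far below AL, with a log2 fold change of -1.19 ± 0.20 (SE; edgeR adjusted p = 0.0039). Its partner chain Col1a1 (chr11:94936224-94953042) was at 510.7, 522.1 and 436.7 CPM in AL and at 141.6, 172.5, 208.6, 342.3 and 126.4 CPM in ALDR. Here replicate 4 stood above the other ALDR libraries, and the log2 fold change was -1.30 ± 0.36 (SE; edgeR adjusted p = 0.0468). Col3a1 (chr1:45311538-45349706), type III collagen, was at 2897, 2701 and 3839 CPM in AL and at 984.4, 1033, 1162, 2182 and 1194 CPM in ALDR. It fell by 1.26 ± 0.22 on the log2 scale (SE; edgeR adjusted p = 0.00407), with replicate 4 the highest ALDR library.

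Of the 34 matrix genes, 1 differed between ALDR and DR and was lower in ALDR (edgeR, adjusted p under 0.05), where 5.81% of all genes were higher and 6.96% lower. Against DRAL 2 were called higher and 17 lower, where 6.37% and 5.96% of all genes were. Col3a1 averaged 1311 ± 495 CPM in ALDR (SD, n = 5) and 1273 ± 117 CPM in DR (SD, n = 3). Its DRAL libraries averaged 3536 ± 492 CPM (SD, n = 5). The log2 difference of ALDR from DR was 0.04 ± 0.22 and that from DRAL was -1.43 ± 0.20 (SE; edgeR adjusted p = 0.000429). Fbn1 likewise averaged 287.3 ± 71.6 CPM in ALDR, 358.1 ± 89.0 CPM in DR and 1020 ± 211 CPM in DRAL. Its difference from DRAL was -1.83 ± 0.21 (SE; edgeR adjusted p = 8.71e-05). The count of 14 matrix genes that fell was 5 without AL replicate 1 or 3, 8 without AL replicate 2 or ALDR replicate 3, and 7 without ALDR replicate 1, 2 or 5. It was 0 without the 3 libraries with muscle transcripts (list median -0.65) and 2 without the 2 with liver transcripts (-0.63). Fbn1, Col1a2, Col3a1 and Col6a2 passed the test in all 8 fits without 1 library, whereas Col1a1 did so only without ALDR replicate 4. Markers of progenitors and fibroblasts, the cells that make most of this matrix, fell in 2 of 16 genes, beside 1.7% of all genes, and both, Col1a1 and Col3a1, are on the matrix list too. The count was 0 without the libraries with muscle transcripts and 0 without those with liver transcripts. Pdgfra, a defining marker of these cells, was lower by 0.38 ± 0.20 and Dpp4 by 0.60 ± 0.24 on the log2 scale, and neither passed the test (edgeR adjusted p = 0.319 and 0.168).

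**Figure D4:**
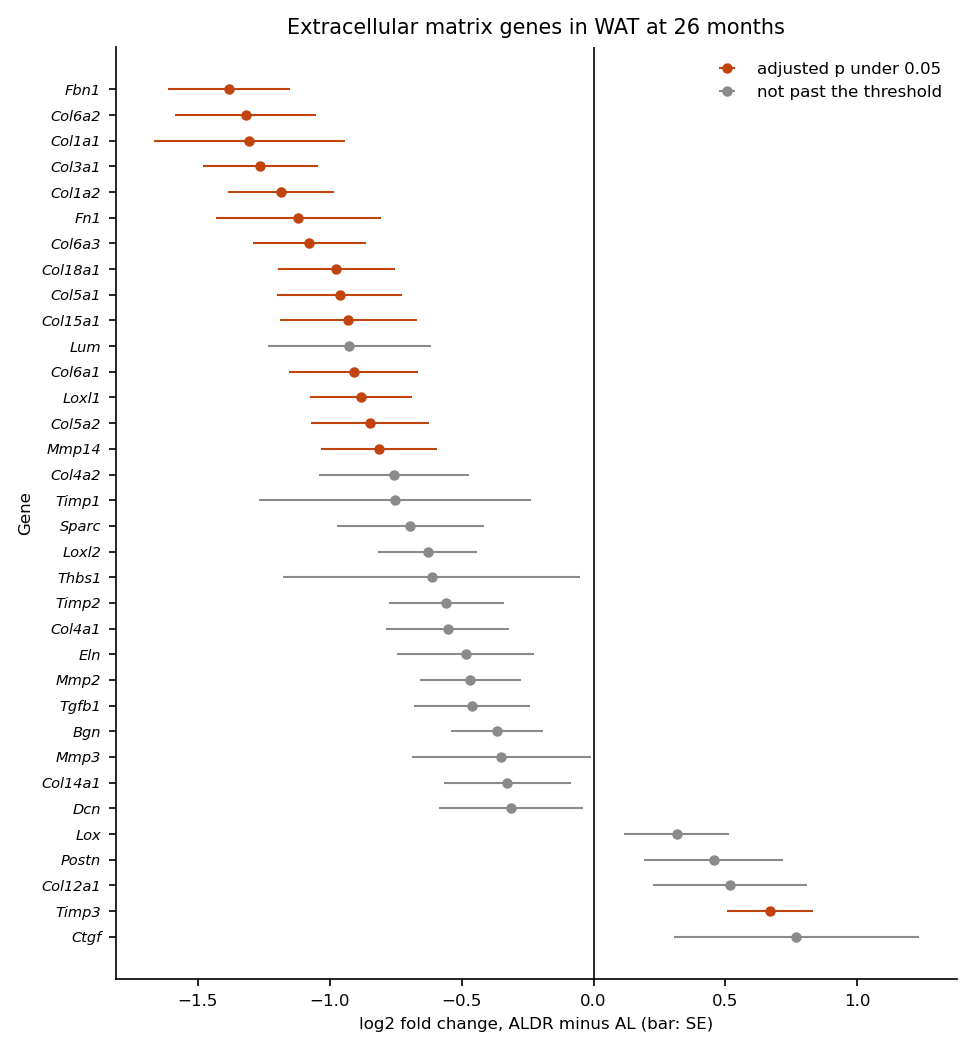
Log2 fold change of ALDR against AL (horizontal axis) with its SE as a bar for the 34 matrix genes, ordered by size, with genes past an adjusted p of 0.05 in red and the others in grey. Of the 34 genes 29 lie below 0, from Fbn1 at -1.38 upward, and Timp3 at 0.67 is the only called gene above 0, a call lost in 6 of the 8 fits without 1 library.

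Few macrophage and inflammatory genes passed the test. Of 23 macrophage markers 1 was called, where 1.7% of all genes fell. The count was 5 with DESeq2, 3 without ALDR replicate 3, 1 without ALDR replicate 4 and 0 in the other 6 fits without 1 library. The 1 called was Mrc1, the mannose receptor, which was at 490.5, 630.0 and 646.1 CPM in AL and at 357.6, 341.0, 404.8, 407.4 and 392.5 CPM in ALDR. The groups did not overlap, and it fell by 0.63 ± 0.18 on the log2 scale (SE; edgeR adjusted p = 0.0478), a call kept only without ALDR replicate 4 among the fits without 1 library. The list's median log2 fold change was -0.67, and 18 of the 23 markers were lower at an unadjusted p under 0.05, against 8.85% of all genes. For DRAL against AL the list's median was -0.55. Trem2, a receptor of lipid-associated macrophages, was at 61.3, 68.6 and 147.5 CPM in AL and at 30.2, 38.4, 56.6, 29.4 and 50.2 CPM in ALDR. Its log2 fold change was -1.17 ± 0.37 without passing the test (SE; edgeR adjusted p = 0.0762), and it was called with DESeq2 (adjusted p = 0.0296). Trem2 averaged 5.33 ± 1.11 CPM in DR (SD, n = 3), and ALDR was above DR by 2.94 ± 0.45 (SE; edgeR adjusted p = 0.000528). Cd68 was lower by 0.80 ± 0.32 (SE; edgeR adjusted p = 0.165). Of 21 inflammatory genes tested 2 fell, beside 1.7% of all genes: Csf1, the macrophage growth factor, by 0.80 ± 0.16 and Nlrp3, the inflammasome sensor, by 1.16 ± 0.26 (SE; edgeR adjusted p = 0.0113 and 0.0164). Both calls were lost without AL replicate 2, without the libraries with muscle transcripts and without those with liver transcripts. Tnf was lower by 0.61 ± 0.38 and did not pass the test.

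Of 34 lysosomal genes 5 fell and none rose, where 1.7% of all genes fell and 2.66% rose. The list's median log2 fold change was -0.24, and -0.27 for DRAL against AL. The genes that fell included the hydrolases Arsb, Glb1 and Gusb and the activator precursor Psap. Arsb, arylsulfatase B, is described below. The log2 fold changes of the others named were -0.33 (Glb1), -0.72 (Gusb) and -0.52 (Psap). The count of 5 was 3 without AL replicate 1, AL replicate 2 or ALDR replicate 2, and 1 without AL replicate 3, ALDR replicate 1 or ALDR replicate 5. It was also 1 without the libraries with muscle transcripts and 1 without those with liver transcripts. Of the growth hormone and IGF genes, 2 of 16 fell, beside 1.7% of all genes, and 0 without the libraries with muscle transcripts. Igfbp5 (chr1:72857932-72874884), an IGF binding protein of the matrix, was at 402.9, 361.7 and 440.6 CPM in AL and at 191.6, 181.7, 174.3, 233.9 and 152.9 CPM in ALDR. It fell by 1.104 ± 0.18 on the log2 scale (SE; edgeR adjusted p = 0.00333). Igfbp4 fell by 0.40 ± 0.08 (SE; edgeR adjusted p = 0.0133), a call lost without AL replicate 1, while Igf1 and Ghr did not pass the test. Of 26 chaperone genes only Pdia3 was called, lower by 0.43 on the log2 scale, and that call was kept only without ALDR replicate 3, 4 or 5.

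Genes were also ranked by adjusted p among those that changed by 1 or more on the log2 scale, did not overlap and averaged 1 CPM or more, and the first 12 in each direction were named. All 24, which were picked for a small p and no overlap, passed the test in each of the 8 fits without 1 library, but 9 did so without the 3 libraries with muscle transcripts and 0 with a replicate block in the 2 groups alone. Among other named and called genes, 8 of 52 did so. Besides clock genes, Hsd11b1 and Nrg4, the risers were Mfng, a glycosyltransferase that modifies Notch, Chst1, a keratan sulfotransferase, Mgst2, a microsomal glutathione transferase, Car5b, a mitochondrial carbonic anhydrase, and Nupr1l, Slc44a3 and Bbof1. Mfng was at 43.5, 51.3 and 45.5 CPM in AL and at 93.3, 109.4, 94.3, 91.0 and 92.1 CPM in ALDR, a log2 fold change of 1.04 ± 0.14 (SE; edgeR adjusted p = 0.000918). The Car5b libraries were at 279.2, 268.5 and 298.7 CPM in AL and at 634.8, 710.8, 624.6, 348.3 and 553.6 CPM in ALDR. Car5b rose by 1.03 ± 0.17 (SE; edgeR adjusted p = 0.00336), with replicate 4 nearest to AL. The 12 that fell included, beside genes named elsewhere, Dtx4, a Notch regulator, Dusp10, a phosphatase of p38 and JNK kinases, Peg10, an imprinted retrotransposon-derived gene, and Fam198b and Igsf10. Dtx4 was at 79.7, 96.01 and 120.8 CPM in AL and at 32.1, 35.7, 42.3, 36.1 and 45.8 CPM in ALDR, a log2 fold change of -1.36 ± 0.16 (SE; edgeR adjusted p = 0.000126).

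Some genes that fell responded differently at 26 and at 5 months, by the test of the difference itself. Over all genes, the diet effect at 26 months differed from that at 5 months in 1.34% of genes (0.67% in each direction), and the diet effect at 5 months alone passed the test in 29.2% (14.8% higher and 14.4% lower). Summed liver markers at 5 months were 337 to 2302 CPM in AL and 2020 to 3851 CPM in ALDR. The liver list's median log2 fold change at 5 months was -5.57, so the higher ALDR sums do not speak for the list as a whole. The part of liver transcripts in these differences was not tested. Spon2 (chr5:33198184-33218455), a secreted matrix protein, was at 92.2, 48.8 and 86.5 CPM in AL and at 10.3, 16.2, 12.4, 9.85 and 15.5 CPM in ALDR at 26 months. It fell by 2.56 ± 0.29 on the log2 scale (SE; edgeR adjusted p = 0.000118), and its change at 5 months was -0.69 (edgeR adjusted p = 0.126). The difference between the responses was -1.87 ± 0.44 (SE; edgeR adjusted p = 0.0409). In DR, Spon2 averaged 15.5 ± 2.65 CPM (SD, n = 3).

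Xkrx, Arsb and Clec3b were low in ALDR in a way that did not follow diet across the groups. Xkrx (chrX:134149043-134162076), of the XK family of membrane proteins, had 545 to 815 counts in the AL libraries and 2 to 12 in the ALDR libraries. In CPM it was at 26.1, 46.3 and 37.4 in AL and at 0.908, 0.220, 0.509, 0.394 and 0.152 in ALDR, and it fell by 6.39 ± 0.75 on the log2 scale (SE; edgeR adjusted p = 0.000126). The group mean was 50.1 ± 14.02 CPM in DR (SD, n = 3) and 0.576 ± 0.288 CPM in DRAL (SD, n = 5), so both groups switched at 24 months were low and both unswitched groups high. Xkrx overlaps Nox1 on the same strand. Arsb (chr13:93771630-93943016), the lysosomal arylsulfatase B, was at 76.4, 130.4 and 106.3 CPM in AL and at 26.1, 26.8, 28.9, 27.1 and 23.6 CPM in ALDR. The ALDR libraries were almost alike, and the log2 fold change was -1.98 ± 0.20 (SE; edgeR adjusted p = 3.5e-05). Arsb averaged 111.9 ± 21.5 CPM in DR (SD, n = 3) and 30.9 ± 2.38 CPM in DRAL (SD, n = 5).

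Direct comparisons of the groups were made for both genes. ALDR differed from DR by -6.84 ± 0.76 in Xkrx and by -2.08 ± 0.20 in Arsb (SE; edgeR adjusted p = 2.52e-05 and 4.29e-06). ALDR differed from DRAL by -0.41 ± 0.88 and -0.22 ± 0.17 (SE; edgeR adjusted p = 0.791 and 0.421). Clec3b (tetranectin; chr9:123150946-123157432) was at 49.5, 65.3 and 55.7 CPM in AL and at 25.9, 25.7, 24.2, 18.2 and 16.9 CPM in ALDR, a log2 fold change of -1.36 ± 0.21 (SE; edgeR adjusted p = 0.0027). Clec3b means were 57.6 ± 14.3 CPM in DR (SD, n = 3) and 34.3 ± 10.4 CPM in DRAL (SD, n = 5), and ALDR was below DRAL by a log2 difference of -0.63 ± 0.19 (SE; edgeR adjusted p = 0.0384). None of the 3 passed the test at 5 months, and the responses at 26 and 5 months differed by -7.16 ± 1.05 in Xkrx, -2.04 ± 0.30 in Arsb and -1.43 ± 0.32 in Clec3b (SE; edgeR adjusted p = 0.00344, 0.00344 and 0.0348). Xkrx varied between 0.846 and 21.9 CPM in the 5-month AL libraries. The labels name no batch, and the late switch and any separate handling of the switched mice cannot be told apart for these genes.

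**Figure D5:**
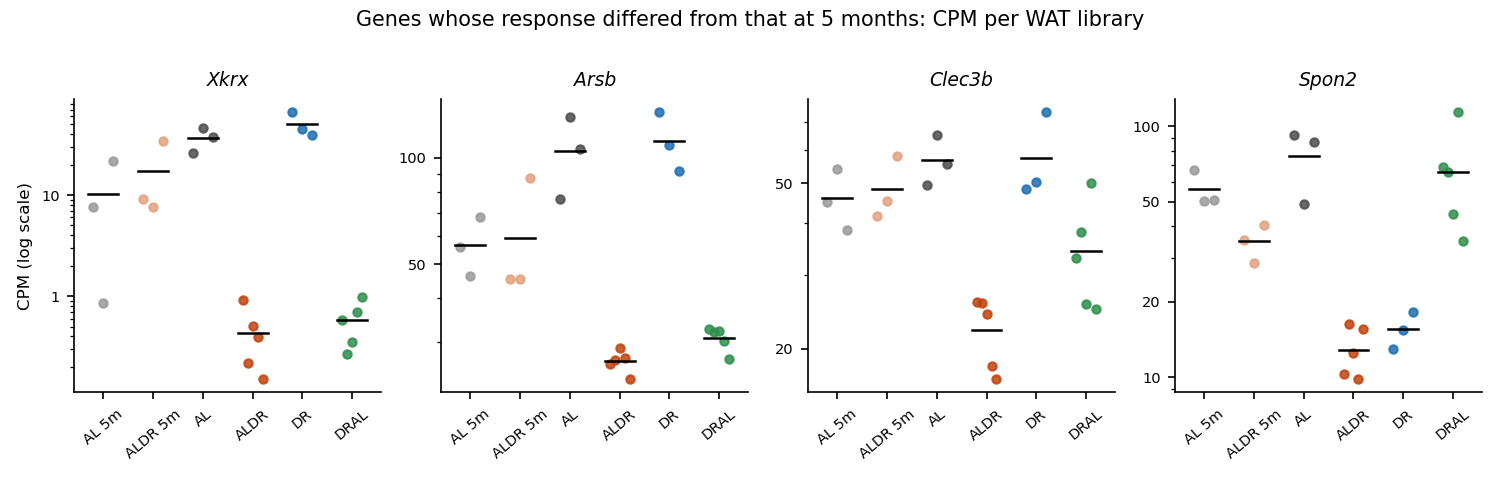
CPM (vertical axis, log scale) of Xkrx, Arsb, Clec3b and Spon2 in all 22 WAT libraries, with points for libraries and lines for group means of 3 AL and 3 ALDR libraries at 5 months and 3 AL, 5 ALDR, 3 DR and 5 DRAL libraries at 26 months. Xkrx and Arsb are low in ALDR and DRAL at 26 months and in no other 26-month group, while Spon2 is low in ALDR and DR.

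Lep differed from the young response in the other direction. At 5 months restriction changed it by -3.80 on the log2 scale (edgeR adjusted p = 4.76e-05), and the effect at 26 months minus that at 5 months was 2.89 ± 0.65 (SE; edgeR adjusted p = 0.033). For Arntl, Per3 and Tef the differences between ages were 0.36 ± 0.25, -0.15 ± 0.28 and -0.20 ± 0.20 (SE), none past the threshold. For Acaca, Fasn and Elovl6 they were -1.504 ± 0.52, -1.31 ± 0.57 and -1.49 ± 0.73 (SE), also not past it.

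Brown adipose tissue (BAT) of mice under the same contrast gave 180 called genes of 13845 tested (1.3%), with 0.578% higher and 0.722% lower, from 5 libraries labelled ADRL, taken here as ALDR, and 3 AL libraries of polyadenylated RNA. Of the 690 genes called in WAT, 645 were tested in BAT and 34 (5.27%) were called there, all in the same direction; they made up 19.1% of the 178 BAT calls among genes tested in both. Of the genes described here these included Per2, with a log2 fold change in BAT of 2.98 ± 0.35, Fkbp5 (2.17 ± 0.51), Tef (0.88 ± 0.20), Car5b (0.91 ± 0.14), Slc27a1 (1.05 ± 0.15), Cidec (0.52 ± 0.11), Cyp2e1 (2.57 ± 0.53) and Col18a1 (-0.40 ± 0.09). Arntl changed by -0.56 ± 0.32 and Col1a2 by 0.00 ± 0.17 in BAT, and neither passed the test. The labels do not say whether WAT and BAT libraries came from the same mice, and levels were not compared between the tissues.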

How the data were processed

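Members, gene lists and tests were chosen with earlier results of these data known. Per the labels' protocols, ribosomal RNA was removed from WAT samples and libraries were strand-specific and read from both ends over 100 bp, while BAT libraries are labelled as single-end and polyA-enriched. The authors deposited 1 table of read counts per gene for each fat tissue, as whole numbers that were not normalized. The submitters' processing notes name Trim Galore 0.3.7, TopHat2 2.0.14, DESeq2 and the build GRCm38; the counting program and annotation are not given in the sources used here, so how reads of overlapping genes and close paralogs were assigned is unknown. Symbols and coordinates come from GENCODE M21 on GRCm38 (25012 of 25913 identifiers had a symbol), and promoters from RefSeq on GRCm38.p6.

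Total counts were 16103349 to 18519384 in AL and 12247161 to 17845962 in ALDR libraries, so 3 counts were worth 0.144 to 0.227 CPM with the scaled totals, which covers counting error only. No libraries of a group agreed within sampling noise (chi-square per degree of freedom at least 22.5), so each was 1 replicate. Counts were tested with edgeR 4.0.16 in R 4.3.3 (filterByExpr, TMM factors, quasi-likelihood), in 1 fit over the 22 WAT libraries and 1 over the 20 BAT libraries. P-values were BH-adjusted over all genes tested, and genes with an adjusted p under 0.05 were called. An SE is the absolute log2 fold change divided by the square root of the F statistic. On simulated counts of 15678 genes for this comparison, 68% of 100 genes changed by 1 on the log2 scale and 91% of 100 changed by 2 were recovered, with 8 false calls. All changed genes averaged above 1 CPM, and apart from these changes every library was drawn from a common mean per gene. No simulated library had muscle or liver transcripts of its own, so these rates need not hold for the data.

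Named genes were the 12 in each direction with the smallest adjusted p among those with a symbol, a change of 1 or more on the log2 scale, a mean of 1 CPM or more and no overlap, 15 preset genes, and up to 6 called members of each list; other clock and list members are given to complete their lists. Genes of the peroxin, chemokine, tubulin and thioesterase families, Nfil3, Rora, Hlf and other list members outside this rule were chosen after their values were seen. Alternatives were DESeq2 1.42.0, limma-voom 3.58.1, other size factors, no filter, only the 2 groups, a replicate block, marker covariates, a threshold of 0.01 and leaving out libraries. Deviations of same-numbered AL and ALDR libraries from their group means correlated at 0.129, -0.65 and 0.0732. Because these deviations also hold the muscle and liver transcripts of single libraries, they cannot show whether same-numbered libraries shared a cage or batch. Liver tables were not used here, and single values of some called list members are not reported here.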

Additional observations from a re-analysis of the deposited data

Results flagged for a closer look

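Single ALDR libraries stood apart from the other 4 in 14 of 100 groups of values tested, and chance alone flags about 1 in 20 groups. ALDR replicate 4 was the lowest library for Chst1 (87.0 CPM), Hsd11b1 (120.6 CPM) and Pck1 (1646 CPM) and the highest for Col3a1 (2182 CPM) and Csf1 (47.3 CPM), each time on the side of AL. Replicate 1 was the highest for Elovl6 (552.9 CPM) and Ucp1 (4.54 CPM) and for the summed markers of mast cells and neutrophils (122 CPM) and of epithelium and mammary gland (219 CPM). Replicate 2 was the highest for Mfng (109.4 CPM), Pfkfb1 (61.3 CPM) and the summed liver markers (3648 CPM). Replicate 5 was the highest for Arntl (13.9 CPM) and Cfd (6412 CPM).

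The late response differed from that at 5 months, by the interaction term in edgeR, for Xkrx (-7.16 on the log2 scale), Arsb (-2.04), Spon2 (-1.87), Clec3b (-1.43) and Lep (2.89). Vegfa rose in WAT and was lower in every ALDR than in every AL library of BAT, with a log2 fold change there of -0.27; the difference between the tissues was not tested.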

How the results depend on the processing

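All 690 called genes kept their direction in every alternative in which they were tested. Against 690 called genes (421 higher, 269 lower), DESeq2 gave 1222 (719 and 503), the fit of the 2 groups alone 177 (77 and 100), a threshold of 0.01 gave 132 (80 and 52), and chosen after seeing the data, leaving out the 3 libraries with muscle transcripts gave 16 (7 and 9) and the 2 with liver transcripts 97 (56 and 41). Leaving out 1 library at a time gave 191 to 1159 genes, 79 to 665 higher and 80 to 494 lower. With the 2 groups alone, 1 gene of fatty acid synthesis, 3 of triglyceride synthesis and uptake, 0 of lipolysis and 1 of glucose uptake were called higher. The clock list then held 6 higher and 2 lower calls, and the matrix list 0 and 7. The replicate block over all WAT libraries gave 580 (386 and 194). Within the 2 groups alone the replicate block in edgeR gave 0, 0 higher and 0 lower, with 2745 genes at an unadjusted p under 0.05; no other tool was run with that block. The share of higher calls was 61.0% in the reported fit, 43.5% with the 2 groups alone and 41.4% to 68.3% without 1 library. Over the 76 called named genes, 1008 gene and alternative pairs kept direction and call and 436 lost the call. Over the 9 named genes not called, 156 pairs stayed so in the same direction, 10 gained a call and 5 reversed. Srebf1, at -0.08 in the reported fit, was 0.0275 with the replicate block, -0.166 to 0.0497 over the fits without 1 library and 0.0649 without the libraries with liver transcripts. Ucp1, at -1.504 in the reported fit, was -4.26 to 1.345 over the fits without 1 library and 1.58 without the libraries with liver transcripts. The causes were not tested. With 3 AL libraries, small changes may be missed.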

Other observations

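Gene families outside the lists above also held called genes, found after the values were seen and defined by symbol alone. Of 17 peroxins, which build peroxisomes and import their enzymes, 5 rose and none fell. A positive log2 fold change was found in 16 of the 17 (median 0.33), against 50.78% of all genes. The risers included Pex3 by 0.48 ± 0.11, Pex16 by 0.52 ± 0.13, Pex6 by 0.46 ± 0.13 and Pex19 by 0.34 ± 0.09 (SE). Pex16, which helps to form new peroxisomes, averaged 81.3 ± 13.97 CPM in AL (SD, n = 3) and 117.0 ± 6.06 CPM in ALDR (SD, n = 5). None of the 5 risers overlapped between the groups, where 7.31% of all genes were higher in ALDR without overlap. Of 12 acyl-CoA thioesterases 3 rose, Acot2 in the main lists, Acot4 from 4.54 ± 1.92 to 16.8 ± 7.28 CPM, and Acot5, which was at 0 in all AL libraries and at 0.256 ± 0.218 CPM in ALDR, near the value of 3 counts. The groups overlapped in Acot4 and Acot5, but not in Acot2.

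Of 41 chemokines and chemokine receptors 3 fell and none rose (median -0.43, with 31 of 41 below 0). Over all genes tested, 50.78% were above 0. Ccl2, which draws monocytes into tissue, averaged 16.4 ± 4.30 CPM in AL and 5.58 ± 3.40 CPM in ALDR, which is -1.55 ± 0.39 on the log2 scale (SE; edgeR adjusted p = 0.0314). Its receptor Ccr2 fell from 108.3 ± 14.1 to 55.0 ± 20.6 CPM, by 0.98 ± 0.26 (SE; edgeR adjusted p = 0.0374), and Cxcl16 from 49.1 ± 11.2 to 25.9 ± 3.59 CPM. On the log2 scale, DRAL differed from AL by -0.32 in Ccl2, -0.18 in Ccr2 and -0.88 in Cxcl16. Of 13 alpha and beta tubulins 2 fell, Tubb2a by 1.105 ± 0.19 and Tubb6 by 0.80 ± 0.20 on the log2 scale (SE). These families are set beside 2.66% of all genes called higher and 1.7% called lower.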
